A study of Drosophila melanogaster with 384 samples.

Results

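Levels of the Y-linked male fertility genes were analysed in RNA of whole Drosophila melanogaster of 96 lines from the Genetic Reference Panel of that species (DGRP), inbred lines that descend from wild-caught flies. The genes were chosen by their FlyBase symbols, which were kl-2, kl-3, kl-5, ORY, Ppr-Y, CCY and ARY. Of these 7 genes, 6 had a row among the 39823 gene models that were considered, and CCY was not measured here. Rows for kl-2 (FBgn0001313), ORY (FBgn0046323), Ppr-Y (FBgn0046697) and ARY (FBgn0058064) carried the current identifiers, whereas kl-3 (FBgn0001314) and kl-5 (FBgn0001315) were listed under older ones.

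All flies had been reared on medium with 10% (v/v) ethanol and were mated and 3 to 5 days old when they were frozen. The 2 groups were females and males of the same lines, with 2 replicates per line and sex and 384 libraries in all. A library was made from a pool of 25 females or 30 males, and its RNA was depleted of ribosomal RNA. No flies from standard medium were analysed here, so that the values below describe the lines on ethanol medium and not a response to it. Wolbachia infection is not part of the labels and was not fitted, and the spread among lines covers genotype and any other property that the pools of a line shared.

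The Y chromosome of Drosophila is not needed for male sex, but XO males are sterile, because the Y carries genes that are used when sperm are made. Several of these genes have introns of megabase size filled with satellite repeats, and in primary spermatocytes they are transcribed as giant lampbrush loops. The products of kl-2, kl-3 and kl-5 are dynein heavy chains of the sperm axoneme, the motor proteins that bend the sperm tail, and ORY and CCY encode coiled-coil proteins. Ppr-Y encodes a protein with pentatricopeptide repeats, a motif found in RNA-binding proteins of mitochondria, and ARY encodes a protein related to aldehyde reductases. Females carry no Y chromosome, and their libraries were counted for the same genes.

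The 6 genes are annotated on chromosome Y in release 6 of the genome (BDGP6), while the counts were made on release 5 models, so no positions are given. The dynein genes are long, with 13386 exonic bases in 12 exons for kl-2, 13882 bases in 16 exons for kl-3 and 13680 bases in 17 exons for kl-5. ORY has 2745 exonic bases in 8 exons, Ppr-Y 1710 in 6 exons and ARY 1392 in 5 exons. Assembled spans ran from 1.62 kb for ARY to 248.3 kb for Ppr-Y, and spans of genes with satellite introns are those of an assembly with gaps.

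Total counts per library were between 5360410 and 16354156 in females and between 6482252 and 17422329 in males, with medians of 10472988 and 10224504. Labelled sex was checked with 5 ovary genes and 18 late spermatid genes. The ovary genes (yolk, vitelline membrane and chorion proteins) summed to a median of 22847 CPM in females (counts relative to 1000000 counts of the library) and 13.2 in males, and the late spermatid genes to 7.25 and 5722 CPM. In 8 male libraries the ovary genes were above 1% of the female median, at most 16.9% in replicate 1 of line 176. Flow cells are here called A to G, and in 76 of the 96 male lines replicate 1 was on A and replicate 2 on B. Male libraries in replicate 1 of lines 911, 385 and 383, on flow cell C, held counts for 17051, 18549 and 19379 gene models, fewer than any other male library (23551 or more).

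All 6 genes had counts in every male library. The 3 dynein genes took most of the reads: kl-2 made up 23.3%, kl-3 26.9% and kl-5 29.6% of the 276678 male counts of the 6 genes, against 12.6% for ARY, 3.95% for Ppr-Y and 3.61% for ORY. Together these genes held 0.0140% of all male counts.

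Among the dynein heavy chains, kl-2 had between 98 and 700 counts per male library, with a median of 323. Normalised to CPM with trimmed mean of M-values (TMM) factors and averaged over the replicates of a line, the level of kl-2 was 32.4 ± 6.90 CPM (SD, n = 96 lines). It was lowest in line 589, with 19.2 and 18.9 CPM in replicates 1 and 2, and highest in line 808, with 46.0 and 57.0 CPM. The replicates of these lines did not overlap, and their line means differed 2.70-fold.

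The counts of kl-3, which encodes a heavy chain of the outer dynein arm, were between 191 and 832 with a median of 354.5. The mean over lines was 37.5 ± 8.21 CPM (SD, n = 96). Line 705 was lowest, at 24.3 and 24.9 CPM, and line 461 highest, at 63.1 and 70.4 CPM, a 2.71-fold difference of line means. Counts of kl-5, the other outer arm heavy chain, were the highest of the 6 genes, between 198 and 889 with a median of 402.5. Its mean was 41.1 ± 7.93 CPM (SD, n = 96), and its line means ran over 2.64-fold from line 340, at 23.8 and 26.5 CPM, to line 799, at 62.1 and 70.5 CPM. For both outer arm genes the replicates of the lowest and highest lines were close to each other and far from those of the other extreme.

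ORY, the coiled-coil gene, was counted 17 to 111 times per male library, with a median of 48.5. Its mean was 5.03 ± 1.21 CPM (SD, n = 96), lowest in line 705 (1.90 and 2.78 CPM) and highest in line 801 (8.15 and 8.87 CPM). Ppr-Y was counted 7 to 134 times, with a median of 53.5, and had a mean of 5.49 ± 1.42 CPM (SD, n = 96). Line 705 was again lowest for Ppr-Y, with 1.43 CPM from 15 counts and 3.34 CPM from 30 counts, and line 799 highest, with 9.51 and 9.99 CPM. Line means differed 3.63-fold for ORY and 4.09-fold for Ppr-Y, the widest ranges of the 6 genes, at counts at which counting alone gives an SD of 14.4% and 13.7% of the median count, against 4.98% for kl-5.

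ARY, the gene related to aldehyde reductases, had between 92 and 361 counts with a median of 171. Its mean was 17.5 ± 3.56 CPM (SD, n = 96). It was lowest in line 228, at 10.9 and 11.2 CPM, and highest in line 808, at 24.6 and 34.5 CPM, which is 2.67-fold.

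**Figure D1:**
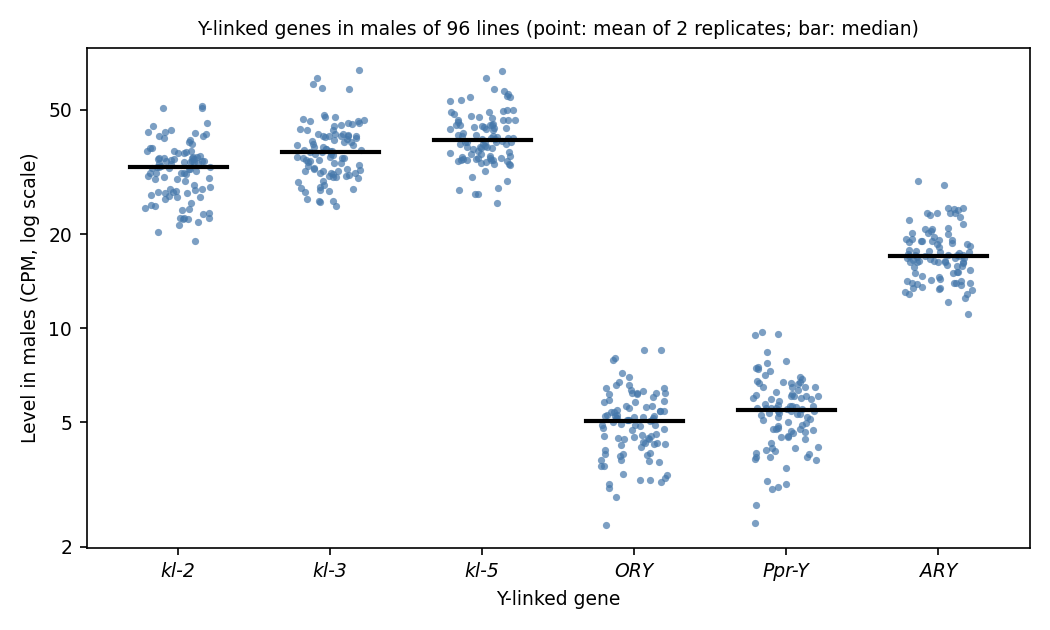
Level of each gene in males (CPM, log axis), with 1 point per DGRP line (mean of 2 replicates, 96 lines) and a bar at the median. The dynein genes kl-2, kl-3 and kl-5 have medians of 32.7, 36.6 and 40.1 CPM, ARY 17.0, and Ppr-Y and ORY 5.47 and 5.05 CPM.

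Longer transcripts give more fragments, and levels of different genes were therefore compared per kb of exon. Exon lengths are those of release 6 and may not equal those of the release 5 models that were counted, kl-3 and kl-5 being matched through older identifiers, so that the order of genes on this scale depends on these lengths. On this scale ARY stood apart, with 12.6 ± 2.56 CPM per kb (SD, n = 96 lines), and its range over lines, from 7.94 to 21.2, lay above that of every other gene of the set. The next gene, Ppr-Y, had 3.21 ± 0.83 CPM per kb, and ARY exceeded it 3.98-fold on average and in 96 of 96 lines. The other 5 genes had overlapping ranges. In ascending order they were ORY at 1.83, kl-2 at 2.42, kl-3 at 2.70, kl-5 at 3.01 and Ppr-Y at 3.21 CPM per kb.

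Neighbours in this order differed to unequal degrees. ORY was below kl-2 in 92 of 96 lines, kl-2 below kl-3 in 78, kl-3 below kl-5 in 80 and kl-5 below Ppr-Y in 60. The mean log2 difference between ORY and kl-2, 0.41, was larger than its SD over lines of 0.26. That between kl-5 and Ppr-Y, 0.07, was smaller than its SD over lines of 0.30, as were those between kl-2 and kl-3, 0.16 with an SD of 0.20, and between kl-3 and kl-5, 0.16 with an SD of 0.18. Among the dynein heavy chains, the mean differences between neighbours were thus smaller than 1 SD of the spread among lines. That SD describes single lines and not the error of the mean, and the order held in 78 and 80 of 96 lines.

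Variation among male lines was examined for each transcript by the quasi-likelihood F-test of edgeR over all male libraries, with the line as the factor and Benjamini-Hochberg (BH) adjustment over all transcripts tested. All 6 genes passed the threshold of 0.05. Of the 18944 transcripts tested, 85.9% did so, so that a line effect was the rule in these males. The F was 5.34 for kl-5 (adjusted p = 3.85e-15), 5.29 for kl-3 (adjusted p = 5.34e-15) and 4.69 for kl-2 (adjusted p = 2.76e-13). It was 2.89 for ARY (adjusted p = 2.24e-07), 2.38 for ORY (adjusted p = 1.81e-05) and 2.28 for Ppr-Y (adjusted p = 4.25e-05). The median F was 3.79 over the 6 genes and 3.10 over all transcripts. The dynein genes were above that median in this fit and the 3 shorter genes below it, but this order depended on the fit for ARY and ORY. In limma with a block for replicate number, F was 5.25 for ARY, 3.40 for ORY and 3.16 for Ppr-Y against a median of 3.29, and with sequencing pool as a covariate 5.65, 3.76 and 3.27 against 3.52, so that only Ppr-Y stayed below the median in all of these fits. In the 20 lines not sequenced on A and B, edgeR's F was 1.38 for ORY (adjusted p = 0.28) and 1.90 for Ppr-Y (adjusted p = 0.0976), which missed the threshold. The other 4 genes passed it, as did 55.9% of all 18837 transcripts tested in these lines.

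The share of the variance between single libraries that lay between lines (the intraclass correlation of log2 CPM) was 0.68 for kl-5, 0.66 for kl-3 and 0.64 for kl-2. It was 0.46 for ARY, 0.40 for ORY and 0.36 for Ppr-Y. The mean shift between replicates was not removed and counts here as spread within lines. In the lines on A and B this log2 shift was 0.25 for ARY, 0.32 for ORY and 0.28 for Ppr-Y. For the dynein genes it was between 0.12 and 0.15. In limma, F for ARY was 2.76 without and 5.25 with a block for replicate number. ARY, ORY and Ppr-Y also had fewer counts, and the part of either in their lower values was not tested. The median intraclass correlation was 0.55 over the 6 genes and 0.49 over all transcripts tested. The SD of line means of log2 CPM was between 0.27 for kl-5 and 0.34 for ORY in 5 of the genes and 0.39 for Ppr-Y, with a median of 0.30 over the 6 genes and 0.35 over all transcripts. In bulk RNA of whole flies, fewer testis cells and less RNA per cell cannot be told apart, and this holds for each difference among lines given here.

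Some lines were high or low for most of the genes, and others for 1 gene alone. Of the 23 lines among the highest 10 for any gene, 10 were so for 1 gene and 5 for at least 5 genes, and of the 28 lines among the lowest 10 for any gene, 12 were so for 1 gene and 1, line 705, for at least 5. Line 808 ranked between 1 and 5 of 96 for all 6 genes, and line 461 between 1 and 8. Line 799 was within the highest 3 for kl-2, kl-3, kl-5, Ppr-Y and ARY and ranked 19 for ORY. At the other end, line 705 was among the lowest 10 for all genes but ARY, for which it ranked 79. Males of lines 799, 801 and 808 were among 16 lines sequenced together on flow cell E in replicate 1 and D in replicate 2, and those of 461 and 705 were on A and B. With the mean of each pool subtracted, line 808 ranked between 1 and 8, line 461 between 1 and 6 and line 705 between 79 and 96, while line 799 ranked between 2 and 4 except for ORY (rank 32). Line 801, highest of all for ORY before, then ranked 4 for that gene and between 4 and 44 for the set. Over all lines, 20 were above the median of the line means for all 6 genes and 23 for none. The summed level of the 6 genes was between 91.3 CPM in line 705 and 224.6 CPM in line 799, with a median of 137.5, a 2.46-fold range.

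Other low lines were less uniform across the genes. Line 340 was lowest of all for kl-5 (rank 96) and ranked 85 for ORY and 84 for kl-2. It ranked 69 for ARY and 67 for kl-3 and Ppr-Y. Line 589 was lowest for kl-2 and next to lowest for kl-5, and ranked 93 for ARY, 89 for Ppr-Y and 81 for kl-3. For ORY it ranked 37, at 5.29 CPM in replicate 1 (50 counts) and 5.20 CPM in replicate 2 (46 counts). Relative to the other 5 genes of the set, ORY in line 589 was higher by 0.70 and 0.51 on the log2 scale in the 2 replicates. Of the 576 combinations of gene and line this was the only one that departed by at least 0.5 in the same direction in both replicates, and it was singled out after its values were seen.

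Replicates of a line were compared next. Over the 96 lines, levels in replicates 1 and 2 were correlated for each gene, with Pearson's r of 0.74 for kl-5, 0.73 for kl-3, 0.72 for kl-2, 0.68 for ARY, 0.56 for ORY and 0.53 for Ppr-Y (Spearman's rho between 0.51 and 0.70, permutation p = 1e-05 for each, the smallest that 100000 permutations can give, BH-adjusted p over the 6 genes = 1e-05). Without the 2 lines farthest from the median, r was between 0.52 and 0.76. Within the 76 lines on A and B, r was between 0.61 and 0.76 and all 6 passed. In the other 20 lines only the dynein genes passed, and r was 0.14 for ORY (adjusted permutation p = 0.56), 0.43 for Ppr-Y (adjusted permutation p = 0.0906) and 0.38 for ARY (adjusted permutation p = 0.114). Without the 4 lines with a male library on flow cell C, r was between 0.60 and 0.77.

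**Figure D2:**
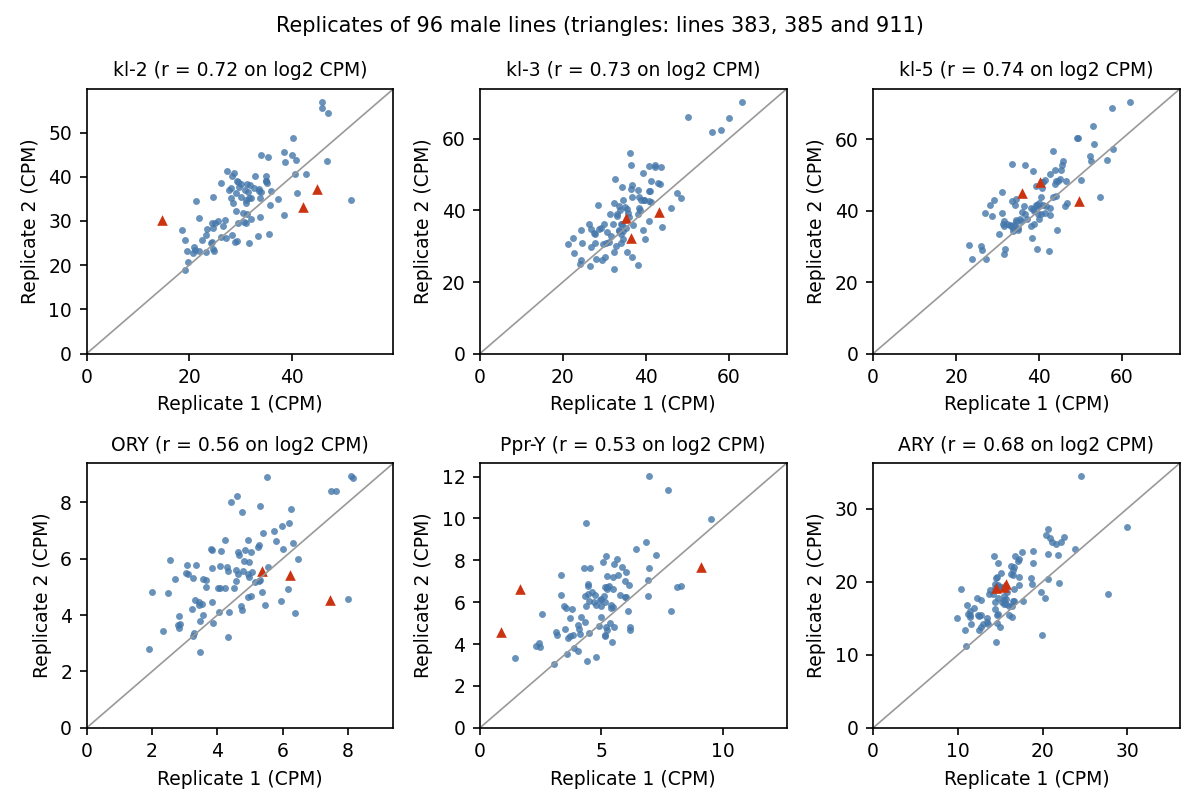
Replicate 2 against replicate 1 (CPM) of the males of 96 lines, 1 panel per gene, with a line of equality and triangles for lines 383, 385 and 911, whose replicate 1 had the fewest gene models with counts. Replicates follow each other most closely for kl-5 (r = 0.74) and least for Ppr-Y (r = 0.53), and the triangles at the left of the Ppr-Y panel are lines 385 (0.871 and 4.56 CPM) and 911 (1.64 and 6.62 CPM).

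For kl-2 and Ppr-Y the widest gaps between replicates were in lines with a library of few gene models. In line 911, kl-2 was at 14.6 CPM in replicate 1 and 30.3 CPM in replicate 2, and Ppr-Y at 1.64 and 6.62 CPM. In line 385, Ppr-Y was at 0.871 CPM in replicate 1, from 7 counts, and at 4.56 CPM in replicate 2, from 46 counts. In line 383, the other such line, replicates were closer, at 9.09 and 7.66 CPM for Ppr-Y and 44.9 and 37.3 CPM for kl-2. The widest gaps of the other genes were elsewhere, for ORY in line 324 (higher in replicate 2 by 1.26 on the log2 scale), for kl-5 in line 365 (33.5 and 53.2 CPM), for ARY in line 406 (10.4 and 19.0 CPM) and for kl-3 in line 176 (36.1 and 55.9 CPM). The 4 male libraries with the highest levels of ovary genes went both ways. In replicate 1 of line 176, where ovary genes were at 16.9% of the female median, all 6 genes were lower than in replicate 2 (kl-2 at 28.8 against 40.8 CPM). In replicate 1 of line 158, where they were at 6.32%, all but kl-3 were lower than in replicate 2 (kl-2 at 28.7 against 34.0 CPM, ORY at 5.14 against 5.18 CPM). In replicate 2 of line 40, at 10.1%, all but kl-5 were higher than in replicate 1 (kl-2 at 34.7 against 31.2 CPM), and in replicate 2 of line 83, at 4.27%, all 6 were higher. Both libraries with mostly lower values were thus replicate 1 and both with mostly higher values replicate 2. The part of these library properties in the differences was not tested.

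In the 76 lines on A and B, all 6 genes were higher in replicate 2, sequenced on flow cell B, in edgeR's quasi-likelihood test with line as a block. Of all 18947 transcripts tested, 23.6% were higher and 20.9% lower in replicate 2. The log2 difference was 0.32 for ORY (adjusted p = 2.54e-11), 0.28 for Ppr-Y (adjusted p = 3.53e-09) and 0.25 for ARY (adjusted p = 2.06e-15). For the dynein genes it was smaller, at 0.15 for kl-2 (adjusted p = 2.35e-07), 0.13 for kl-3 (adjusted p = 3.58e-05) and 0.12 for kl-5 (adjusted p = 1.72e-05). Other lists differed between the replicates as well. Of 14 spermatocyte regulators 13 were higher in replicate 2 (median log2 difference 0.18), and of 14 axonemal dynein and assembly genes 11 (median 0.13), with none lower. Late spermatid genes went both ways, with 10 of 18 higher and 4 lower (median 0.07), as did those of accessory gland and ejaculatory bulb, with 5 of 16 higher and 7 lower (median -0.03). Of 4 ovary genes tested, 3 were lower and none higher (median -1.05), and the median over all transcripts was 0.01. Flow cell and replicate number cannot be told apart in these lines, and the mean of the replicates was used for each line.

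The balance between the genes also differed among lines. The ratio of 2 genes within a library is nearly independent of the normalisation of that library. The log2 ratios of the 15 pairs were correlated between replicates over the 96 lines (r between 0.24 and 0.59, 15 of 15 pairs with a BH-adjusted permutation p under the threshold, largest adjusted p = 0.0176). The most repeatable ratio was that of kl-3 to kl-5 (r = 0.59). Its SD over line means was 0.17, and it ran from -0.68 in line 195 to 0.36 in line 340. The ratio of kl-3 to ARY repeated with r = 0.57 and ran from 0.39 in line 195 to 1.69 in line 596. Ratios with ORY or Ppr-Y had the lower counts and repeated with r between 0.24 and 0.49.

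Levels of the 6 genes varied together over the lines. All 15 pairs were positively correlated over line means of log2 CPM (Pearson's r between 0.53 and 0.83, median 0.70, permutation p = 1e-05 for each, the smallest possible, BH-adjusted p over 15 pairs = 1e-05). The strongest were the pairs of dynein genes, kl-2 with kl-5 (r = 0.83, Spearman's rho = 0.82), kl-3 with kl-5 (r = 0.82, rho = 0.80) and kl-2 with kl-3 (r = 0.77, rho = 0.76), together with kl-5 and ARY (r = 0.80, rho = 0.78). The weakest was Ppr-Y with ARY (r = 0.53, rho = 0.54). Without the 2 lines farthest from the median r was between 0.54 and 0.81, within the lines on A and B between 0.49 and 0.84, in the other 20 lines between 0.51 and 0.87, and with the mean of each sequencing pool subtracted between 0.54 and 0.84, and all 15 pairs passed each time. The genes of a line were measured in the same libraries and share their normalisation.

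Of 5 other Y-linked genes looked for, WDY and PRY were not measured here and FDY, Pp1-Y1 and Pp1-Y2 had rows. Pp1-Y2, which encodes a protein phosphatase catalytic subunit, had 8.68 ± 1.93 CPM (SD, n = 96) and correlated with each of the 6 genes (r between 0.52 and 0.82, highest with ARY, largest adjusted permutation p = 3e-05 over 18 relations). Its lowest line was 705 (5.63 CPM) and its highest 799 (15.6 CPM), as for several of the fertility genes, and in the 20 lines not on A and B its relation passed with 5 of the 6 genes. FDY, which arose from a copy of the autosomal gene vig2, had 3.41 ± 0.99 CPM and weaker correlations, with r between 0.22 and 0.40 (largest adjusted permutation p = 0.0421). Females had 52.0% of the male level of FDY, and its counts are uncertain where reads match vig2 as well. In the 20 lines not on A and B, FDY passed in none of the 6 relations (r between -0.05 and 0.44, median 0.18). That number of lines is too small for an r of the size seen over all lines to pass.

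Pp1-Y1, a further phosphatase gene, had no count in either male replicate of 8 lines, and its correlations were also computed in the other 88. Over all 96 lines, with these 8 included, r was between 0.05 and 0.21 and passed for 0 of 6 genes, while rho was between 0.30 and 0.42 and passed for 6 of 6 (largest adjusted permutation p = 0.00334). In the 88 lines r was between 0.24 with Ppr-Y (adjusted permutation p = 0.0245 over 6 genes) and 0.41 with kl-2 (adjusted permutation p = 0.00048), and rho between 0.32 and 0.53. Without the 2 lines farthest from the median r was between 0.22 and 0.40. This split of the lines was made after the values were seen, and relations within flow cells were not computed for it.

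Lists of other genes of the male reproductive tract were compared in the same way, each as the mean of centred log2 CPM. Late spermatid genes, which include the sperm tail and chromatin proteins of the Mst and don juan families, correlated with all 6 genes. Their r was 0.76 with ARY, 0.74 with kl-5, 0.70 with kl-3, 0.68 with kl-2, 0.64 with ORY and 0.47 with Ppr-Y (largest adjusted permutation p = 3e-05 over 30 relations, rho between 0.48 and 0.77). Spermatocyte regulators such as aly, can and sa, which switch on the transcription program of meiosis and sperm differentiation, had r between 0.45 and 0.61, and genes of axonemal dyneins and their assembly that are not on the Y r between 0.45 and 0.72. In both lists all 6 relations passed.

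These relations were also seen within the sets of flow cells. In the lines on A and B, all 18 relations with these 3 lists passed, and in the other 20 lines 15 of 18 did, the exceptions being Ppr-Y with late spermatid genes (r = 0.48, adjusted permutation p = 0.0601), Ppr-Y with axonemal dynein genes (r = 0.36, adjusted permutation p = 0.16) and kl-2 with spermatocyte regulators (r = 0.33, adjusted permutation p = 0.214). With pool means subtracted, r was between 0.42 and 0.78 and all 18 passed. Without the 2 lines farthest from the median r was between 0.44 and 0.73.

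Genes of other male organs had weak relations with the fertility genes. The 16 genes of accessory gland and ejaculatory bulb, which make seminal fluid and mating plug proteins, had r between -0.29 with kl-5 (adjusted permutation p = 0.00586) and 0.03 with Ppr-Y (adjusted permutation p = 0.754), and 5 of 6 relations passed, all negative. Within the lines on A and B r was between -0.29 and -0.01 (median -0.22, against -0.23 over all lines) and 3 passed. In the other 20 lines r was between -0.22 and 0.32 (median -0.09) and none passed, at a number of lines too small for an r of the size seen over all lines to pass. A list of 170 transcripts of at least 10 kb that are not on the Y, included because the dynein transcripts are long, had r between -0.47 with ARY and -0.24 with Ppr-Y, and all 6 passed. ARY is the shortest gene of the set. In the other 20 lines 1 of these 6 passed, with r between -0.54 and -0.07 and a median of -0.40 against -0.35 over all lines, and with replicate 1 alone 2 passed, with r between -0.23 and -0.03.

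**Figure D3:**
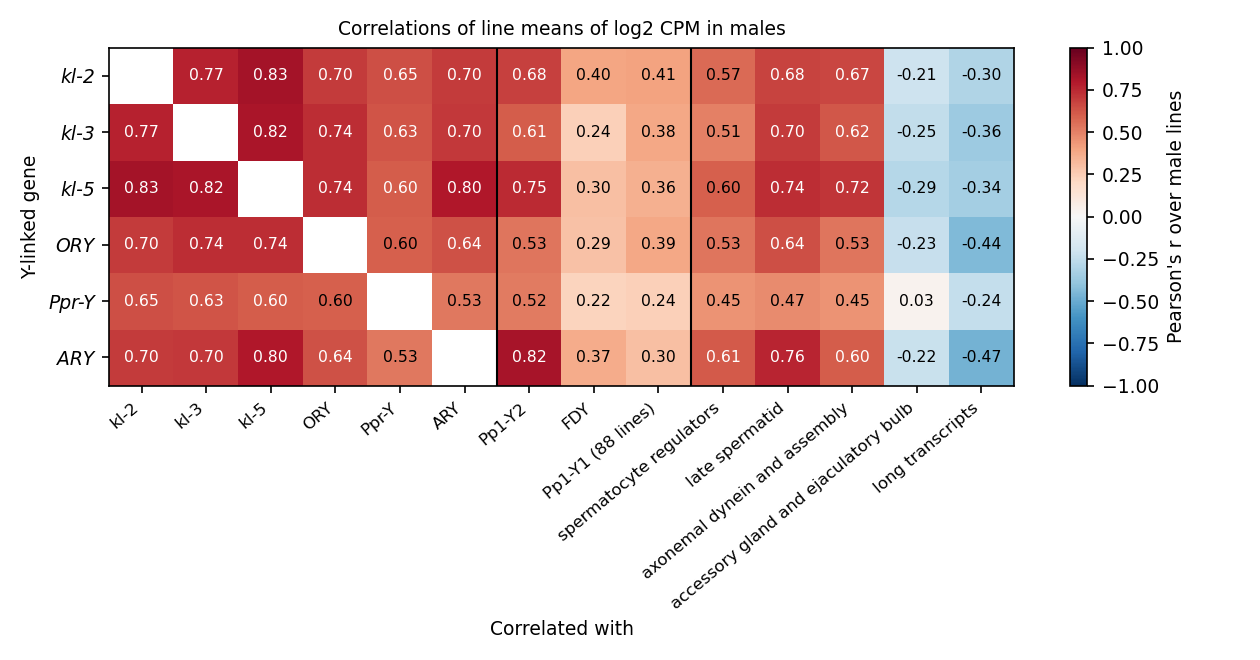
Pearson's r of line means of log2 CPM in males for each gene (rows) with each other gene of the set, with other Y-linked genes and with gene lists (columns), over 96 lines, or over the 88 lines with counts for Pp1-Y1. The 6 genes correlate with each other (0.53 to 0.83) and with late spermatid genes (0.47 to 0.76), and accessory gland genes lie between -0.29 and 0.03.

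The annotated genes with the pattern most like that of each fertility gene were found among 13651 genes by Pearson's r over the 96 line means. For kl-5 they were CG31287 (r = 0.88), CG5217 (r = 0.87) and CG6304 (r = 0.85), and for ARY CG15296 (r = 0.87), CG4661 (r = 0.86) and CG32945 (r = 0.86). CG14183 (r = 0.81), CG42523 (r = 0.80) and CG31287 (r = 0.80) were closest to kl-3, and CG13544 (r = 0.80) stood between 2 gene models without a symbol for kl-2 (r = 0.80 for both). ORY was most like CG12699 (r = 0.73), CG14609 (r = 0.73) and CG42523 (r = 0.71). For Ppr-Y a gene model without a symbol (r = 0.67), l(2)41Ab (r = 0.65) and ATPsynCF6L (r = 0.64) were closest. None of the genes with a symbol is on the Y. Many genes shared the pattern, since r was above 0.5 for 1686 of the genes with kl-5 and for 455 with Ppr-Y, while the median r over all genes was -0.09 and -0.02.

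Females were examined for signal of the same genes. Female libraries held 402 counts of the 6 genes in all, against 276678 in males. In 134 libraries none of the genes had a count, which in a library of median depth allows up to 0.286 CPM (3 counts) for a gene, and covers counting error only. The other 58 libraries held at least 1 count, 39 of them between 1 and 3 and 9 more than 10. No gene reached the mean of 5 counts that was needed to test a line effect in females.

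By gene, kl-2 had counts in 29 female libraries (at most 15), kl-3 in 21 (at most 20) and kl-5 in 29 (at most 45). ARY had counts in 13 libraries (at most 6), Ppr-Y in 8 (at most 5) and ORY in 4 (at most 3). Pooled over all libraries, the level in females was 0.167% of the male level for kl-2, 0.164% for kl-5, 0.154% for Ppr-Y, 0.127% for ARY, 0.118% for kl-3 and 0.0594% for ORY, the last from 6 counts. For none of the genes did the ranges of the sexes overlap: the lowest male library exceeded the highest female library 1.84-fold for Ppr-Y, 3.72-fold for kl-5 and between 6.40- and 11.2-fold for the others, in CPM without TMM factors. Since females carry no Y chromosome, a gap between the sexes was set by the design. The share of all transcripts without overlap is not given here.

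**Figure D4:**
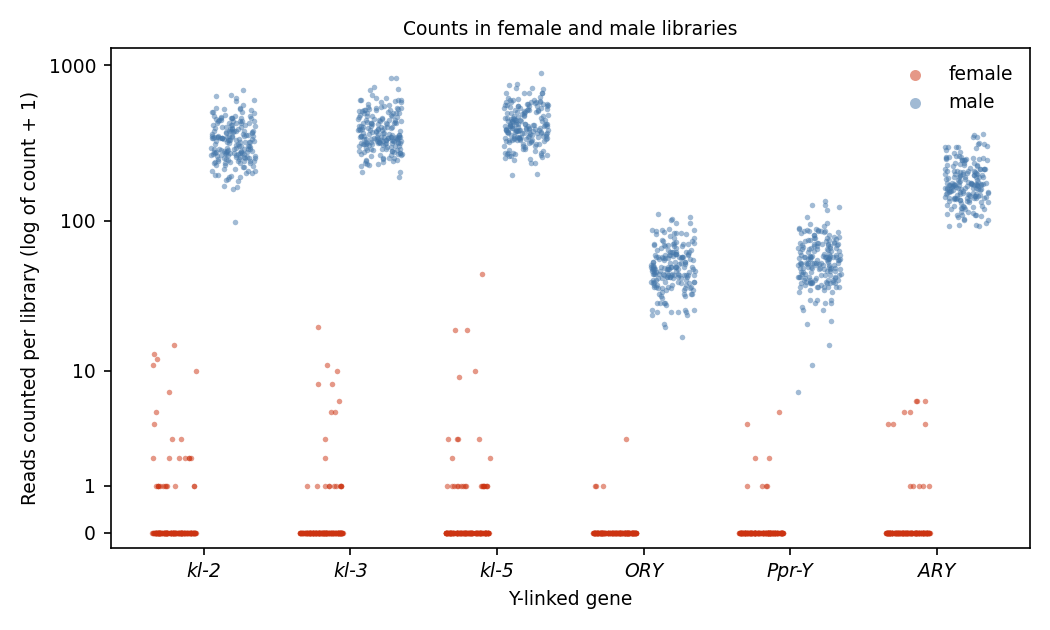
Reads counted per library for each gene in each female and male library, on a log axis of the count plus 1. Most female libraries lie at 0 (between 163 and 188 libraries per gene), and the highest female count is 45, for kl-5, whereas male medians are between 48.5 for ORY and 402.5 for kl-5.

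For the sex difference, counts of both replicates of a line were added up within each sex, and edgeR's test was run with line as a block. All 6 genes were higher in males, as were 57.8% of all 18062 transcripts tested. Females carry no Y chromosome and the genes passed the filter through their male counts, so this direction was set by the design. The fold values below describe how few reads were assigned to these genes in female libraries. Pooled levels were 598-fold higher in males for kl-2, 845-fold for kl-3, 608-fold for kl-5, 1682-fold for ORY, 650-fold for Ppr-Y and 786-fold for ARY, and males exceeded females in 96 of 96 lines for each. The value for ORY rests on 6 female counts, and without replicate 2 of line 83, which held 3 of them, it was 3347-fold (exact 95% Poisson interval 1145 to 16229, for counting error in females). Without the female library with most counts of each, chosen after seeing the data, the other genes were between 690- and 1084-fold higher. The fitted log2 differences were between 8.46 for Ppr-Y (adjusted p = 2.82e-59) and 9.46 for kl-3 (adjusted p = 1.31e-163). The largest adjusted p was that of ORY, 4.64e-25. Fitted values depend on how zeros are handled, and limma, which adds a prior count of 2, gave differences between 5.60 ± 0.04 (SE) for ORY and 8.29 ± 0.08 for kl-5 over 96 pairs. The median of all transcripts was 0.34, and 0.49 with the size factors of DESeq2.

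Female counts were concentrated in few libraries. The 6 libraries with the highest summed level held 60.7% of them. Replicate 2 of line 83 was highest, with 13 counts of kl-2, 20 of kl-3, 19 of kl-5, 3 of ORY, 5 of Ppr-Y and 4 of ARY, and it was the only female library with counts of all 6. Its summed level was 4.52% of the male median, and its late spermatid genes were at 3.92% and its accessory gland and ejaculatory bulb genes at 3.50% of theirs. Replicate 1 of line 59 had 15 counts of kl-2, 11 of kl-3, 19 of kl-5 and 6 of ARY, with the summed level at 3.35% and the late spermatid genes at 4.51% of the male median. Accessory gland and ejaculatory bulb genes were at 1.15% there. Replicate 1 of line 83 and replicate 2 of line 59 had no count of the 6 genes. The male library in replicate 2 of line 83, on the same flow cell B, held ovary genes at 4.27% of the female median. The source of these counts was not tested.

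Other male transcripts were found in the same female libraries. In the 9 libraries with over 10 counts of the fertility genes, late spermatid genes were between 1.15% and 4.58% of the male median, and accessory gland and ejaculatory bulb genes between 1.15% and 4.09%. No library without a count of the fertility genes held more than 0.722% for the late spermatid genes or 0.475% for the accessory gland and ejaculatory bulb genes. Libraries in between overlapped with these. In the 10 with 4 to 10 counts the 2 lists ran from 0.0634% to 2.25% and from 0.00379% to 3.67%. In the 39 with 1 to 3 counts they ran from 0.0739% to 0.602% and from 0.000767% to 0.502%. Spermatocyte regulators, of which females express some, were at 49.0% of the male median in the median female library. The part of other male transcripts in these values was not tested.

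In some female libraries the counts fell on 1 gene alone. Replicate 1 of line 790 had 45 counts, all of kl-5, a level of 4.13% of the male median for the 6 genes summed, and replicate 2 of that line had none. Replicate 1 of line 399 had 9 counts, also all of kl-5, and replicate 1 of line 555 had 12 of kl-2, 10 of kl-3 and 1 of ARY but none of kl-5. These libraries were on flow cell C. Of the 22 female libraries in replicate 1 on flow cell C, 16 (72.7%) had a count of a fertility gene, against 42 of 170 (24.7%) of the other female libraries. They also had counts for fewer gene models, with a median of 16280 against medians between 21377 and 25199 for the other combinations of flow cell and replicate. Late spermatid genes had a median of 0.358% of the male level in them and of 0.119% in the others.

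**Figure D5:**
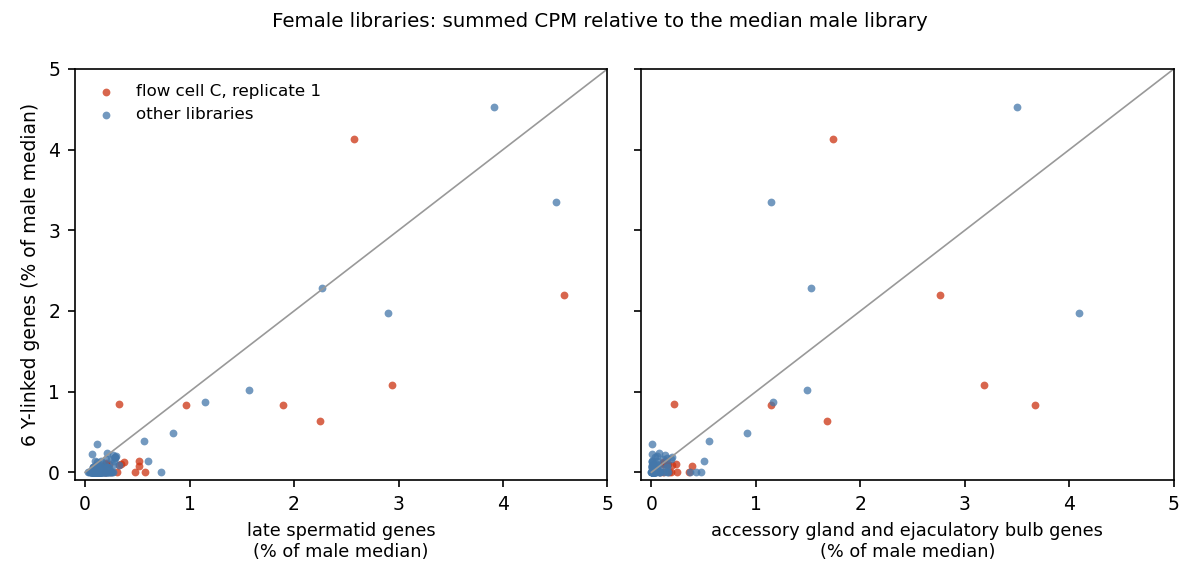
Summed CPM of the 6 genes in each female library (vertical axis) against the summed CPM of late spermatid genes (left) and of accessory gland and ejaculatory bulb genes (right), each in percent of the median male library, with a line of equality. Most libraries lie near 0 on both axes, and the highest, replicate 2 of line 83, is at 4.52% for the 6 genes and 3.92% and 3.50% for the lists.

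Genes of other axonemal dyneins and their assembly, genes of RNA-binding proteins of the Y loops and spermatocyte regulators were set beside the fertility genes. All 14 measured axonemal dynein and assembly genes were higher in males in edgeR's test, with a median log2 difference of 5.26, and all 14 differed among male lines, with a median F of 5.19. Beside them, 57.8% of all transcripts were higher in males and 85.9% differed among male lines. CG9313, an intermediate chain gene, had a log2 sex difference of 6.76 and an F of 7.18. Dhc93AB, a dynein heavy chain gene that is used in sensory cilia, had a difference of 1.34 and an F of 5.61. Among 4 genes of RNA-binding proteins of the Y loops, all 4 were higher in males and differed among lines. For blanks, which is needed for expression of Y genes with giant introns, the sex difference was 5.25, for bol 2.61, for Rb97D 0.19 and for heph 0.13. The differences of Rb97D and heph were below the median of all transcripts, 0.34, and all 14 spermatocyte regulators passed, as did 94.9% of all transcripts in either direction, 13 higher in males and twe, which encodes a meiotic Cdc25 phosphatase, lower (log2 difference -0.75).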

How the data were processed

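RNA of whole flies, 384 libraries, was sequenced as directional single-end reads. The authors trimmed reads with cutadapt 1.6, removed those matching ribosomal, microbial or repeat sequences with BWA 0.7.10, aligned the rest to BDGP5 with STAR 2.4.0e and tabulated them per gene model with HTSeq-count. The authors deposited these as raw read counts, without normalization or pooling of replicates. Alignments to more than 1 place (25.8% of those tallied), to no gene model (2.85%) or ambiguous between models (1.39%) were not assigned to genes, and entered neither library sizes nor tests. Repeat removal means that satellite introns are not measured.

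Of 40020 models, ribosomal (162) and mitochondrial (35) ones were left out of the tests and of levels with TMM factors. Their counts remained in the library totals and in CPM computed without TMM factors, as for females and for sums of marker lists. Counts were analysed with edgeR 4.0.16 (quasi-likelihood F-test, TMM, with a common dispersion from the most abundant 5% of transcripts), limma 3.58.1 and DESeq2 1.42.0 in R 4.3.3, and with Python 3.11.15, NumPy 2.4.6 and pandas 2.3.3. A transcript was tested if it averaged 5 or more counts per library fitted (10 or more where replicates were summed), with BH adjustment and a threshold of 0.05. Correlations used log2 CPM with a prior count of 2, means of 2 replicates and 100000 permutations, two-sided. Tests were also run on simulated counts of 24 lines with 200 changed transcripts. The line test found 198 with 8 false calls, the replicate test 167 with 10 and the sex test 193 with 9. Every simulated transcript had the same dispersion and no flow cell shift was simulated, so these values do not show how the tests behave at the noise of the real libraries. Replicates are described as separate collections of flies. The chi-square per degree of freedom between replicates was 1.17 for females of line 882 and 1.28 for those of line 437, slightly above sampling noise and far below every other pair (7.80 or more). Whether these 2 pairs are repeat runs of 1 pool each was not tested. Both pairs are female, and their replicates were summed in the sex test.

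The genes and lists were chosen with earlier results of these data known. Named were all members, all other Y-linked genes with a row, the lines with the highest and lowest level of each gene, the 3 annotated genes most like each member, and the female libraries with the highest summed level, with examples from the lists. Other settings tried were a filter at 50 counts or none, limma or DESeq2's test in place of edgeR's, size factors or total counts in place of TMM, a block for replicate number, a covariate for sequencing pool, 0.5 as the prior count, subsets of lines, and each replicate left out. Lengths, exon numbers and chromosomes were taken from release 6 (BDGP6).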

Additional observations from a re-analysis of the deposited data

How the results depend on the processing

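All 6 genes passed the threshold for the sex effect and for the replicate difference under every alternative run in which they were tested. For the sex effect this was set by the design, since females carry no Y chromosome. For the line effect in males all 6 passed under every alternative but the 20 lines not on flow cells A and B, where ORY and Ppr-Y did not pass. With the filter at 50 counts, 4 genes were tested for sex. The fitted log2 sex differences were between 8.14 and 9.77 without replicate 1, between 7.80 and 8.99 without replicate 2, and between 4.65 and 7.48 in limma with single libraries paired by line and replicate number (replicate block), where the prior count weighs more. With a replicate block in the line test (limma), F was between 3.16 and 6.66. The labels do not say that a number marks a shared batch, though both replicates of both sexes were on the same flow cells in 45 of 96 lines. Deviations of male and female libraries with the same number correlated with r over 0.1 in 60 of 96 lines (median 0.18), and the block changed no call of the 6 genes. Over all transcripts, 17147 passed for sex, against 27638 with no filter and 10717 with the filter at 50. For line, 16277 (85.9%) passed, against 10363 (92.2%) with that minimum and 10533 (55.9%) in the 20 lines, where fewer samples were tested.

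Of 30 relations with gene lists, 29 passed in all lines and 16 in the 20 lines not on A and B, and of 6 correlations between replicates, 6 and 3. The correlation of Ppr-Y with accessory gland and ejaculatory bulb genes, 0.03 in all lines, was -0.0143 in the lines on A and B, -0.114 without the 2 lines farthest from the median, -0.0497 with pool means subtracted, -0.151 without replicate 1, 0.136 without replicate 2 and -0.0277 without the lines with a male library on flow cell C (chosen after seeing the data), and passed in none of these. Weaker relations were mostly those with accessory gland and ejaculatory bulb genes and with long transcripts. Their causes were not tested. The line effect in females was not run, since no gene reached a mean of 5 counts there.

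Counts limit what can be said of ORY and Ppr-Y, whose medians per male library were 48.5 and 53.5. In a single female library of median depth, 0 counts allow a level of up to 0.286 CPM.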

Other observations

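Pp1-Y1, a Y-linked phosphatase gene outside the set of fertility genes, was at 0 counts in both male replicates of lines 176, 208, 315, 340, 385, 399, 596 and 801. The floor of 3 counts over both replicates was between 0.143 and 0.176 CPM in these 8 lines. In the other 88 lines its summed count was between 7 and 87 with a median of 45.5, and its level between 0.321 and 4.12 CPM, so that no line lay between the floor and the lowest of them. All 6 fertility genes had counts in both male replicates of these 8 lines. Pp1-Y1 has 1 exon of 954 bases in release 6, and whether its sequence is present in these lines was not analysed here.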
